A study of Mus musculus with 18 samples.

Results

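The 34 genes described here encode enzymes of cholesterol and fatty acid synthesis and the proteins that control them. They were chosen by name from the 23951 gene rows of the deposited table: 17 enzymes of sterol synthesis, 11 enzymes that make, lengthen or desaturate fatty acids, and 6 regulators and carriers (Insig1, Insig2, Srebf1, Srebf2, Scap and Stard4). Of these, 33 stood under the listed name, and Sc4mol was found under its other symbol, Msmo1. A gene entered the tests when it reached 1 FPKM (fragments per transcript length and mapped fragments) in at least 3 libraries, and 32 of the 34 did, 16 of them sterol enzymes. Hmgcs1, the synthase that feeds the pathway, was listed at 0 in all 18 libraries, which in a table of estimated values can be a failed estimate. Acacb, the mitochondrial acetyl-CoA carboxylase, ranged from 0.02 to 1.36 FPKM and was not tested.

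The 18 libraries of 5 groups hold poly(A) RNA of cells sorted out of fresh mouse pancreas and pancreatic tumors. Normal pancreatic fibroblasts (NPF, n = 3) came from mice labelled Elas-tTA/tetO-Cre and Rosa26+/EYFP, alleles that all 5 groups carry. Cancer-associated fibroblasts (WT_CAF, n = 5) and tumor cells (WT_tumor, n = 4) came from mice that carry Trp53lox/lox as well, and their knockout counterparts (KO_CAF, n = 3, and KO_tumor, n = 3) came from mice that are also Saa3-/-, lacking a serum amyloid protein. Elas-tTA places the activator tTA under the elastase promoter, and tTA switches on the Cre recombinase of tetO-Cre. The elastase promoter is active in acinar cells, the enzyme-secreting cells of the pancreas. The sources used here give neither the ages of the mice nor the markers of the sort.

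Cholesterol is built from acetyl-CoA through mevalonate, farnesyl diphosphate, squalene and lanosterol, and farnesyl diphosphate also feeds protein prenylation. When sterols in the endoplasmic reticulum are scarce, Scap escorts the precursors of the SREBP transcription factors (encoded by Srebf1 and Srebf2) to the Golgi apparatus, where they are cut and released to the nucleus. Insig1 and Insig2 hold Scap back when sterols are plentiful. SREBP2 acts mainly on the sterol genes and SREBP1 mainly on the fatty acid genes. In the normal pancreas some fibroblasts are stellate cells, which store lipid droplets rich in retinoids.

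Promoters are shown for the 5 sterol genes that passed the test lower in tumor than in normal fibroblasts once 1 library was left out. Sequences are from RefSeq on build GRCm38.p6, whereas the only mouse build named for the files is mm9, so the coordinates belong to the former. Each is a window of 300 bases, from 250 before the transcription start to 50 after it. Msmo1 lies at chr8:64733529-64733828 on the minus strand, Sc5d at chr9:42264251-42264550 on the minus strand and Idi1 at chr13:8885356-8885655 on the plus strand. Tm7sf2 lies at chr19:6067801-6068100 on the minus strand and Nsdhl at chrX:72918271-72918570 on the plus strand. Letters are 5′ to 3′ along the gene, and capitals mark CCAAT, the box bound by the factor NF-Y, or TCACNCCA, a form of the sterol regulatory element, on either strand.
Msmo1: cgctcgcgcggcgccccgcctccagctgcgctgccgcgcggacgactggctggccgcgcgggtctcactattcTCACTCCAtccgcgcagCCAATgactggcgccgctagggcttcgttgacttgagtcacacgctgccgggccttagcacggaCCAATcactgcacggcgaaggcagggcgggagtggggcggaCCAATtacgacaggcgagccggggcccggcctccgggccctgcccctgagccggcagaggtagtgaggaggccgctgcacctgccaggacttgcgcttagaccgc
Sc5d: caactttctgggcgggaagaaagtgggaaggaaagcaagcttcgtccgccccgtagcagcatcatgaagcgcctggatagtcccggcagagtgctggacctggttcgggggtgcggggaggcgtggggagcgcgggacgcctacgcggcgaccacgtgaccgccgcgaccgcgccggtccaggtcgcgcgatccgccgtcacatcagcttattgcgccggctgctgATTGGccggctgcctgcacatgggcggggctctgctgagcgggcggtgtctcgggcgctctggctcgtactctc
Idi1: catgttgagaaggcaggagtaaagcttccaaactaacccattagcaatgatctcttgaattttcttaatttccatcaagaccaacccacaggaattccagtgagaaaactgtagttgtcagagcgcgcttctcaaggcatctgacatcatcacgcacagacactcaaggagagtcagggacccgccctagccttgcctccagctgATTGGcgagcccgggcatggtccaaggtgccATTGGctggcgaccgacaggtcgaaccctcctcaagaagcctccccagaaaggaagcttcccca
Tm7sf2: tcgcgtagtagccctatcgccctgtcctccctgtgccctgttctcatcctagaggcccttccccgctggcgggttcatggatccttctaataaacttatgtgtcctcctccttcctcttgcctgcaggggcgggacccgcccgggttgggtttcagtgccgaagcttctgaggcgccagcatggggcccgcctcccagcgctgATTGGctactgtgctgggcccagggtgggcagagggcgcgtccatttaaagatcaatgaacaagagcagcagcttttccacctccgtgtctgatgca
Nsdhl: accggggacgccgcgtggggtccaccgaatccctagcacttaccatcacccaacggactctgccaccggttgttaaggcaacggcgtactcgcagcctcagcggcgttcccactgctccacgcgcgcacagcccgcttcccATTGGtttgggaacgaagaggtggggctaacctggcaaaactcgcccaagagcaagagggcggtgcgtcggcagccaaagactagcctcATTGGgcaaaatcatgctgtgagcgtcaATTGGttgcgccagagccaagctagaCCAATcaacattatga

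The Msmo1 window held 3 CCAAT matches and 1 TCACNCCA match, Nsdhl held 4 CCAAT matches, Idi1 held 2, and Sc5d and Tm7sf2 held 1 each. A promoter was listed for 27 of the 34 genes, and the other 7 are Sqle, Scd1, Scd2, Stard4, Fdft1, Fads1 and Fdps. CCAAT was found on either strand in 23 of these 27 genes (85.2%) and in 41.1% of the 27025 genes in the promoter table. TCACNCCA was found in 3 of the 27, Hmgcs1, Msmo1 and Srebf2 (11.1%, against 4.97% of all genes). CACGTG, the E-box, was found in 6 of the 27 (22.2%, against 8.09%). TCACNCCA ends in the letters that begin CCAAT and CACGTG, so its matches can overlap theirs, and each motif was counted on its own. The matches are a description of these windows, and no test was made of the shares.

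FPKM summed to between 396646 and 919859 per library, 10657 to 11670 genes reached 1 FPKM, and the number of fragments behind the values is unknown. The highest sum was that of NPF 1, beside 454838 and 519833 in NPF 2 and 3 and at most 627869 in the other groups. Saa3 stood at 0 to 1.85 FPKM in the 6 knockout libraries, below the 2.75 to 4280 FPKM of the 12 others. The library labelled WT_CAF 1 went against its group: its 10 fibroblast markers summed to 887 FPKM against 14500 to 18200 in WT_CAF 2 to 5, with 9.80 FPKM of the fibroblast receptor Pdgfra against 81.0 to 121, and its Saa3 stood at 7.24 FPKM against 892 to 4280. Col3a1, one of the 10 markers, was listed at 0 in WT_CAF 2 to 4 and KO_CAF 1 and 2 beside 5660 and 9050 FPKM in WT_CAF 5 and KO_CAF 3, which can be a failed estimate, so those sums lack it. The 8 epithelial markers of WT_CAF 1 summed to 627 FPKM against 29.9 to 347, and they were split. Krt8, Krt18, Krt19 and Cdh1 were the highest of WT_CAF there, at 252, 245, 119 and 10.1 FPKM. Epcam, Cldn4, Cldn7 and Krt7 were the lowest of WT_CAF there, at 0.22, 0.234, 0.211 and 0.472 FPKM. WT_tumor 4 stood apart as well, with Epcam, an adhesion molecule of epithelia, at 2.60 FPKM where WT_tumor 1 to 3 held 129 to 549, and its epithelial markers summed to 2920 FPKM against 4550 or more in the other tumor cell libraries. Results on fibroblasts are therefore given with and without WT_CAF 1. The sample labels come in 3 forms, with an index of 6 bases in 8 libraries, one of 16 bases in 5, and none in NPF 1 to 3 and WT_CAF 1 and 2, and this form was a term of the model. In sorted bulk RNA, fewer cells of a type and less RNA per cell cannot be told apart.

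**Figure D1:**
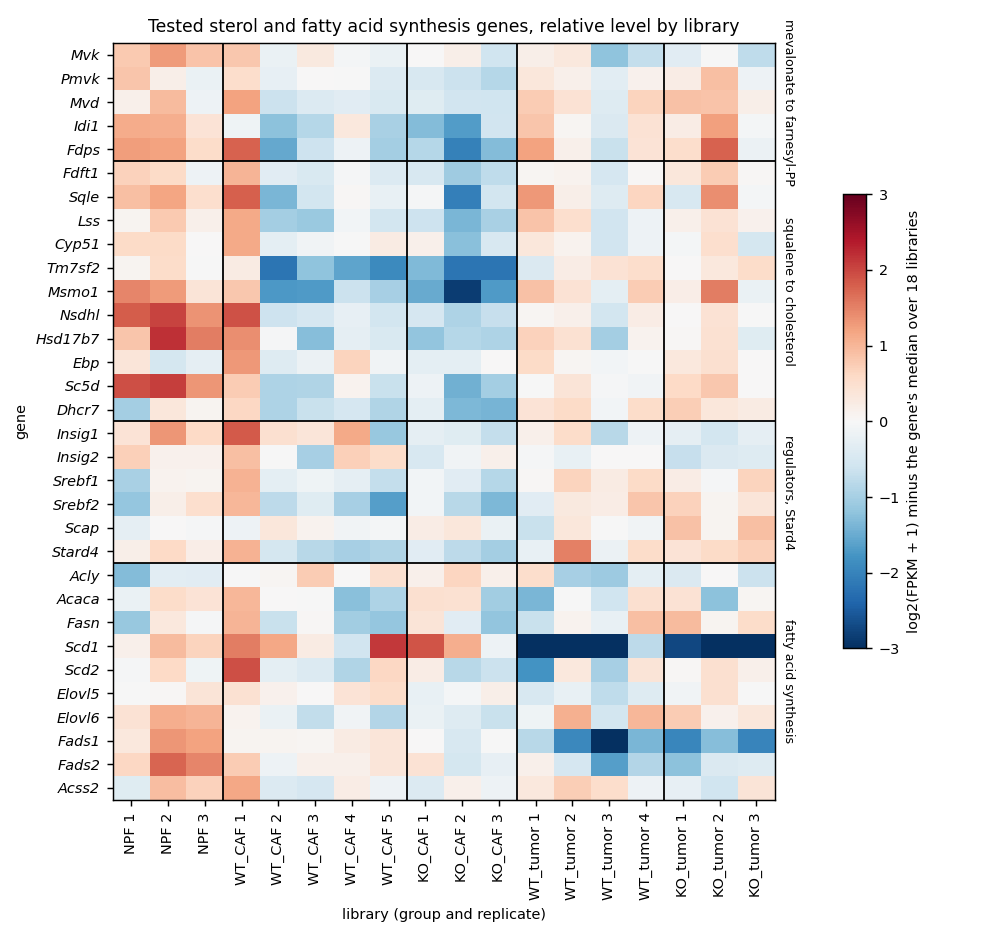
Level of the 32 tested genes in each of the 18 libraries, as log2(FPKM + 1) minus the gene's median over all libraries. Color runs from -3 (blue) to 3 (red) and stops there, rows are grouped by role, and black lines part the groups of libraries and of genes. Fdps, Lss, Msmo1, Nsdhl and Hsd17b7 are red in every NPF library and in WT_CAF 1, and blue in WT_CAF 2 to 5 and KO_CAF, while Scd1 and Fads1 are blue across the tumor cells.

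The sterol enzymes were at their lowest in tumor fibroblasts and higher in normal fibroblasts and in tumor cells. Summed over the 16 tested sterol enzymes, NPF held 554, 576 and 363 FPKM, WT_CAF 2 to 5 held 137, 170, 255 and 176 FPKM, and KO_CAF held 174, 99.2 and 141 FPKM. The library labelled WT_CAF 1 held 633 FPKM, the highest sum of all 18 libraries. WT_tumor held 451, 317, 200 and 337 FPKM and KO_tumor 323, 594 and 249 FPKM. The mean log2(FPKM + 1) of the 16 enzymes was 4.27 to 4.85 in NPF, 3.01 to 3.69 in WT_CAF 2 to 5 and 2.59 to 3.29 in KO_CAF, and NPF overlapped neither of these tumor fibroblast groups. Tumor cells, at 3.45 to 4.63, overlapped NPF and, through WT_tumor 3, WT_CAF 2 to 5.

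In normal against tumor fibroblasts, every NPF library stood above each of WT_CAF 2 to 5 for 14 of the 32 tested genes, where the same held for 10.2% of all 13369 tested genes. These 14 were 11 sterol enzymes (Mvk, Mvd, Idi1, Fdps, Sqle, Lss, Tm7sf2, Msmo1, Nsdhl, Hsd17b7 and Sc5d) with Elovl6, Fads2 and Stard4. The same 14 genes parted NPF from all 7 tumor fibroblast libraries other than WT_CAF 1 (background 7.68%). With WT_CAF 1 included, 3 genes did so against WT_CAF, Idi1, Sc5d and Elovl6 (background 6.05%). Acly was the 1 gene for which NPF lay below WT_CAF, both with WT_CAF 1 (background 5.13%) and without it (background 11.0%), and it lay below all 7 tumor fibroblast libraries other than WT_CAF 1 as well (background 8.11%).

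Nsdhl, a sterol dehydrogenase of the demethylation steps, stood at 32.1, 37.2 and 22.9 FPKM in NPF, at 34.2, 5.10, 5.63, 6.91 and 5.39 in WT_CAF 1 to 5, and at 5.65, 3.95 and 4.84 in KO_CAF. The 7 other tumor fibroblast libraries lay far below NPF, and WT_CAF 1 lay among the NPF values. Mean Nsdhl in NPF (30.7 ± 7.23 FPKM, SD, n = 3) was 5.34 times that in WT_CAF 2 to 5 (5.76 ± 0.80, n = 4). Sc5d, the desaturase of a late sterol intermediate, stood at 46.9, 52.2 and 30.6 FPKM in NPF, at 20.4, 5.64, 5.69, 12.6 and 6.99 in WT_CAF 1 to 5, and at 10.3, 3.66 and 5.17 in KO_CAF. NPF was above every tumor fibroblast library, WT_CAF 1 included, although that library was the closest to NPF.

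Msmo1, the monooxygenase that starts sterol demethylation, stood at 108, 94.1 and 50.5 FPKM in NPF, at 68.0, 11.0, 11.1, 24.2 and 18.9 in WT_CAF 1 to 5, and at 12.9, 4.49 and 11.1 in KO_CAF. Its mean in NPF was 5.17 times that in WT_CAF 2 to 5 and 8.90 times that in KO_CAF. Without WT_CAF 1 the groups did not overlap, and with it the lowest NPF library lay below it. Tm7sf2, a sterol reductase, stood at 8.87, 12.8 and 8.29 FPKM in NPF, at 10.1, 1.05, 3.07, 2.11 and 1.5 in WT_CAF 1 to 5, and at 2.72, 1.04 and 1.06 in KO_CAF. Again WT_CAF 1 fell within the NPF range and the other 7 libraries fell well under it.

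Idi1, the isomerase that makes the activated isoprene unit, stood at 43.7, 43.3 and 26.5 FPKM in NPF, at 17.9, 7.85, 10.4, 24.9 and 9.62 in WT_CAF 1 to 5, and at 7.37, 5.48 and 12.9 in KO_CAF. For this gene WT_CAF 4 came close to the lowest NPF library, and no library overlapped. Fdps, which makes farnesyl diphosphate and was the most abundant sterol enzyme in NPF, stood at 117, 113 and 71.6 FPKM there, at 166, 16.1, 30.8, 43.1 and 23.4 in WT_CAF 1 to 5, and at 26.1, 11.0 and 19 in KO_CAF. WT_CAF 1 was above all NPF libraries and the other tumor fibroblasts were below them.

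Sqle, the squalene epoxidase and a step that limits flux, stood at 36.9, 44.4 and 27.4 FPKM in NPF, at 68.3, 6.79, 12.7, 19.7 and 16.3 in WT_CAF 1 to 5, and at 18.6, 3.86 and 12.8 in KO_CAF. Lss, which closes squalene epoxide into lanosterol, stood at 7.49, 12.9 and 7.96 FPKM in NPF, at 16.7, 3.01, 2.72, 6.66 and 4.55 in WT_CAF 1 to 5, and at 4.28, 2.11 and 3.14 in KO_CAF. Both showed the same order, with WT_CAF 1 highest, then NPF, then the remaining fibroblasts. Fdft1, the squalene synthase, stood at 35.4, 32.9 and 19.5 FPKM in NPF, at 45.2, 16.8, 15.5, 21.3 and 16.2 in WT_CAF 1 to 5, and at 15.3, 9.88 and 12.3 in KO_CAF. Here NPF and WT_CAF overlapped with or without WT_CAF 1, and KO_CAF lay below both groups. Among the sterol enzymes that did not part NPF from WT_CAF 2 to 5, Ebp, a sterol isomerase, had a mean of 24.3 ± 8.40 FPKM in NPF (n = 3) and 27.1 ± 9.93 in WT_CAF 2 to 5 (n = 4). Dhcr7, the reductase of the last step, had 3.23, 9.82 and 8.05 FPKM in the NPF libraries against 12.1, 3.49, 4.38, 4.98 and 3.53 in WT_CAF 1 to 5, and the groups overlapped with and without WT_CAF 1.

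**Figure D2:**
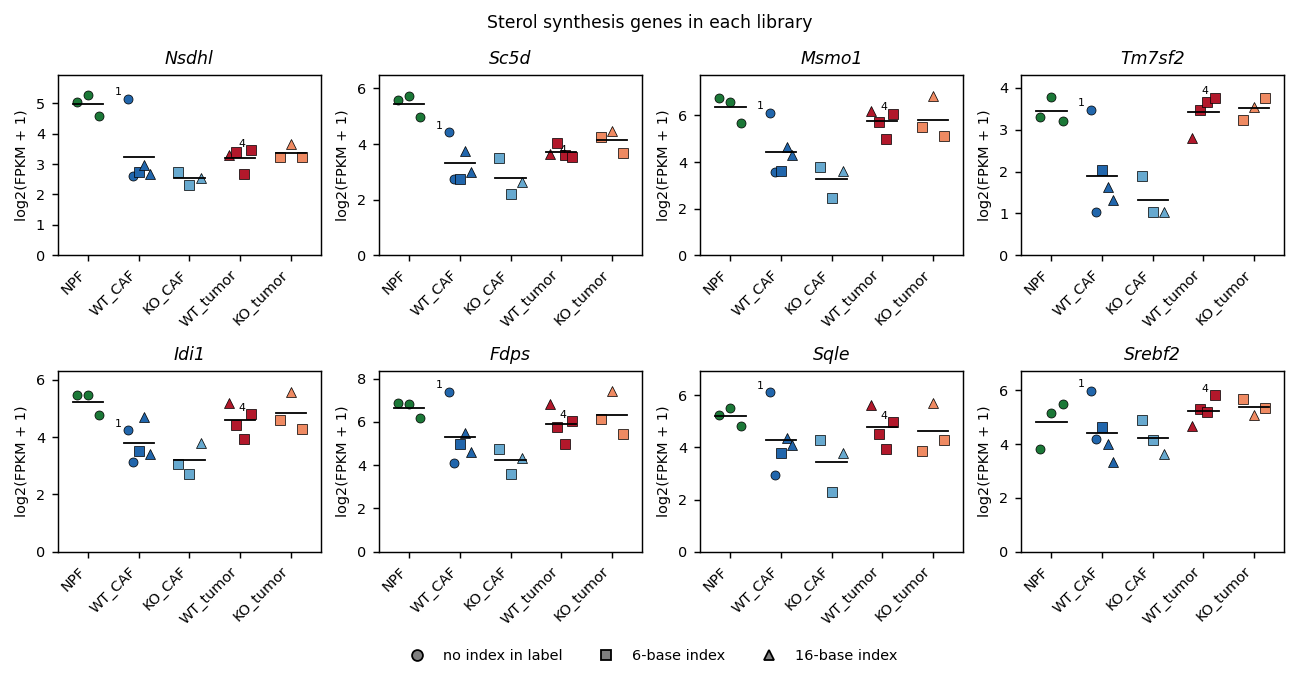
Log2(FPKM + 1) of 7 sterol enzymes and Srebf2. Points are libraries in columns by group, shapes show the label's index form, lines are means over a group's libraries, and the numbers mark WT_CAF 1 and WT_tumor 4. WT_CAF 1 lies above WT_CAF 2 to 5 for Nsdhl, Msmo1, Tm7sf2, Fdps and Sqle, and above NPF as well for Fdps and Sqle.

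In the linear model (limma, two-sided, adjusted over all tested genes, with group and index form as terms), 0 of the 32 genes passed in WT_CAF against NPF with all libraries, where 0.673% of tested genes were called lower and 0.277% higher. Of the 32, 4 had an unadjusted p under 0.05, a looser threshold to which these shares do not apply. The median difference was -0.04 on the log2 scale over the 32 genes and -0.66 over the 16 sterol enzymes, beside -0.01 over all genes. Closest to the threshold were Sc5d, at -1.86 ± 0.49 (standard error; adjusted p = 0.093), and Idi1, at -1.55 ± 0.41 (adjusted p = 0.093).

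Without WT_CAF 1, 5 genes fell and 0 rose in WT_CAF against NPF (background 0.653% lower and 0.758% higher). Nsdhl fell by 2.35 ± 0.35 (limma adjusted p = 0.0059), Tm7sf2 by 2.40 ± 0.39 (adjusted p = 0.0098) and Sc5d by 2.70 ± 0.50 (adjusted p = 0.022). Msmo1 fell by 2.76 ± 0.57 (adjusted p = 0.032) and Idi1 by 2.10 ± 0.47 (adjusted p = 0.046). The median was then -0.78 over the 32 genes and -1.45 over the sterol enzymes, beside -0.01 over all genes. Among these 5 are 3 that act one after another between lanosterol and cholesterol, Tm7sf2, Msmo1 and Nsdhl.

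The size of these differences rests on few libraries. NPF shares the label form without an index with WT_CAF 1 and 2 only, so with the index form in the model WT_CAF 2 alone stands against 3 NPF libraries once WT_CAF 1 is left out, and its spread is taken from the other groups. When WT_CAF 2 was left out instead, WT_CAF 1 alone set the size, and the differences turned to 0.18 for Nsdhl (adjusted p = 0.80), 0.043 for Tm7sf2 (adjusted p = 0.98) and 0.76 for Fdps (adjusted p = 0.47). Without WT_CAF 1 and without the index term, all of WT_CAF 2 to 5 entered and 8 genes fell (background 2.93%). Nsdhl then fell by 2.21 ± 0.24 (limma adjusted p = 5e-05), and Fdps, Hsd17b7 and Elovl6 joined the 5.

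**Figure D3:**
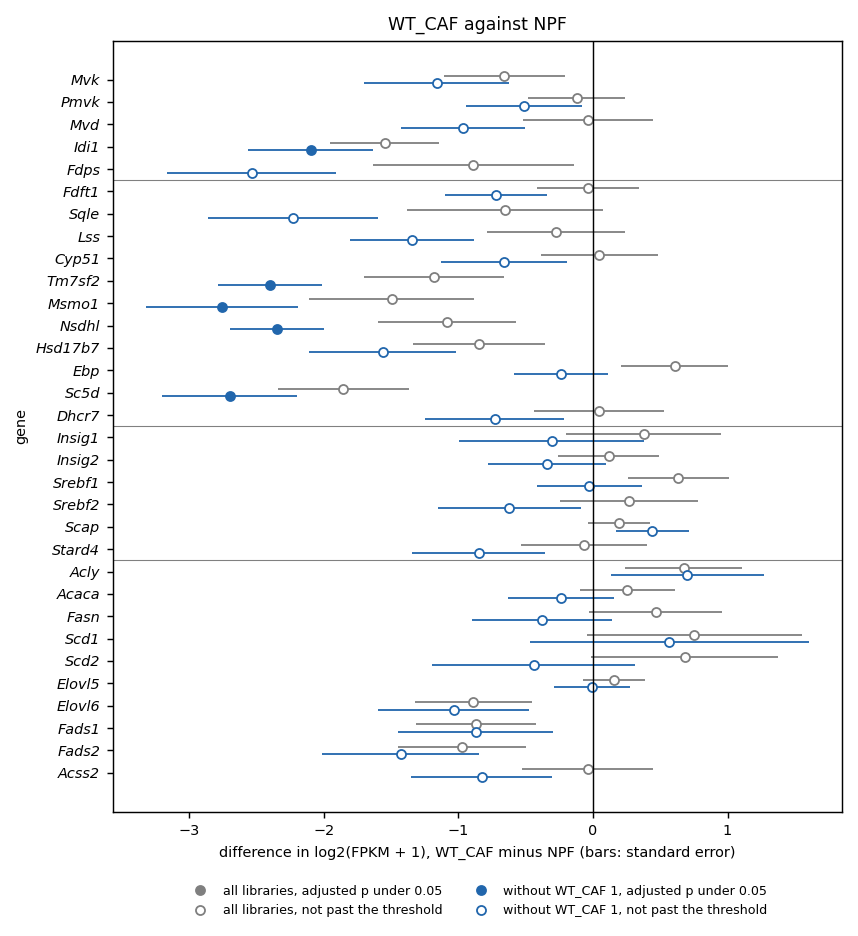
Difference in log2(FPKM + 1) between WT_CAF and NPF for the 32 tested genes, with all libraries (grey) and without WT_CAF 1 (blue). Points are model estimates, bars are standard errors, and filled points have an adjusted p under 0.05. The 5 filled points, all blue, are Idi1, Tm7sf2, Msmo1, Nsdhl and Sc5d.

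KO_CAF was set against NPF as well. The 2 groups share no label form, so that index form and group cannot be told apart. NPF lay above KO_CAF for 18 of the 32 genes, 13 of them sterol enzymes (background 14.0%). In a model with the group alone, 6 genes fell with all libraries (background 1.13%) and 8 fell without WT_CAF 1 (background 2.3%), and all were sterol enzymes. Without WT_CAF 1, Msmo1 fell by 3.06 ± 0.50 (limma adjusted p = 0.0023) and Nsdhl by 2.43 ± 0.26 (adjusted p = 5.9e-05). The comparison with WT_CAF and this one share the 3 NPF libraries.

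Acinar RNA moved with the same groups. The 8 acinar markers, none of them at 0 throughout NPF, summed to 961, 5540 and 38500 FPKM in NPF 1 to 3, to 24.6 to 570 in WT_CAF and to 13.1 to 157 in KO_CAF. Within NPF the library with the most acinar RNA, NPF 3, had the lowest mean of the sterol enzymes (4.27 on the log2 scale), NPF 1, with the least, had 4.61, and NPF 2, between them in acinar RNA, had the highest at 4.85. The 7 macrophage markers summed to 17.7 to 102 FPKM in NPF, 55.4 to 178 in WT_CAF and 30.5 to 254 in KO_CAF. The part of these cells in the difference was not tested.

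Against tumor fibroblasts of the same Saa3 genotype, tumor cells had 3 of 16 sterol enzymes called higher with Saa3 intact and 8 of 16 in the knockout, and the desaturases Scd1 and Fads1 were called lower in both. In WT_tumor against WT_CAF, 3 of the 32 genes rose (Idi1, Msmo1 and Tm7sf2) and 3 fell (Scd1, Fads1 and Elovl5). Of all tested genes 9.05% were called higher and 12.5% lower, so both counts over the 32 were near or under the share. The median difference was 0.41 over the 32 genes, 0.90 over the sterol enzymes and -0.56 over the fatty acid enzymes, beside 0.07 over all genes. KO_tumor against KO_CAF, which shares no library with that comparison, had 9 genes higher and 2 lower (background 13.0% and 15.4%). Here the rises were above their share and the falls under it. The 9 were 8 sterol enzymes and Stard4, and the median over the sterol enzymes was 1.15, beside 0.05 over all genes. With index form in the model, only WT_CAF 3 to 5 of the WT_CAF libraries set the size of the difference from WT_tumor. Leaving out WT_CAF 1 could therefore change only the standard errors, and these medians over the listed genes were the same. Without it, 5 genes were called higher in WT_tumor (background 11.6%) and 13 in KO_tumor (background 15.4%), and 3 and 2 were called lower (background 15.0% and 17.8%). With all other libraries kept, the 3 rises in WT_tumor went to 0 without WT_CAF 3, without WT_CAF 5 or without WT_tumor 1, and the 3 falls went to 1 without WT_CAF 3. Both counts were 0 when only WT_tumor and WT_CAF were fitted. Every WT_tumor library stood above every WT_CAF library for 0 of the 32 genes (background 5.66%), and for 6 without WT_CAF 1 (background 12.5%). KO_tumor stood above KO_CAF for 16, of which 12 were sterol enzymes (background 20.6%). The 9 rises in KO_tumor went to 3 without KO_CAF 2, KO_CAF 3, KO_tumor 1 or KO_tumor 2.

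Msmo1 stood at 72.0, 52.1, 31.1 and 66.2 FPKM in WT_tumor and at 44.1, 113 and 33.5 in KO_tumor. Every tumor cell library was above the tumor fibroblasts other than WT_CAF 1, and the tumor cells overlapped NPF. Msmo1 rose by 1.92 ± 0.54 in WT_tumor against WT_CAF (limma adjusted p = 0.022) and by 2.53 ± 0.55 in KO_tumor against KO_CAF (adjusted p = 0.0047). Tm7sf2 stood at 5.92, 9.99, 11.6 and 12.5 FPKM in WT_tumor and at 8.40, 10.6 and 12.6 in KO_tumor. These values overlapped NPF and were all above the 7 low fibroblast libraries, with a rise of 1.57 ± 0.46 (adjusted p = 0.026) and 2.19 ± 0.46 (adjusted p = 0.0041).

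Idi1 stood at 35.9, 20.7, 14.4 and 26.9 FPKM in WT_tumor and at 23.3, 47.3 and 18.7 in KO_tumor. Its highest fibroblast values from tumors (WT_CAF 4 and 1) lay within the WT_tumor range, and KO_CAF lay below KO_tumor. The rise was 1.08 ± 0.36 (limma adjusted p = 0.044) with Saa3 intact and 1.64 ± 0.36 (adjusted p = 0.0052) in the knockout. Fdps stood at 113, 53.9, 30.1 and 64.3 FPKM in WT_tumor and at 69.4, 168 and 42.4 in KO_tumor. It overlapped WT_CAF but not KO_CAF, with a difference of 1.20 ± 0.66 (adjusted p = 0.20) and a rise of 2.11 ± 0.67 in the knockout (adjusted p = 0.031).

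Fdft1 stood at 22.7, 23.5, 15.1 and 22.2 FPKM in WT_tumor and at 27.6, 37.4 and 22.1 in KO_tumor. The lowest, WT_tumor 3, lay just under the lowest WT_CAF library, while all of KO_tumor lay above KO_CAF, where the gene rose by 1.14 ± 0.34 (limma adjusted p = 0.022). Dhcr7 stood at 10.3, 11.6, 7.01 and 11.4 FPKM in WT_tumor, at 13.3, 9.78 and 9.11 in KO_tumor and at 5.99, 2.33 and 2.24 in KO_CAF. Tumor cells were above all 7 tumor fibroblast libraries without WT_CAF 1, and the gene rose by 1.46 ± 0.43 in the knockout comparison (adjusted p = 0.022). Lss stood at 13.7, 10.5, 4.40 and 6.25 FPKM in WT_tumor and at 7.93, 9.83 and 7.79 in KO_tumor. It overlapped WT_CAF and was above KO_CAF throughout. Sqle stood at 48.5, 21.9, 14.5 and 30.3 FPKM in WT_tumor and at 13.4, 51.7 and 18.4 in KO_tumor, a wide spread that overlapped both fibroblast groups. Its differences were 1.07 ± 0.64 (adjusted p = 0.24) and 1.16 ± 0.65 (adjusted p = 0.19).

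Nsdhl and Sc5d did not share the level of Msmo1 and Tm7sf2 in tumor cells. Nsdhl stood at 8.81, 9.43, 5.38 and 9.94 FPKM in WT_tumor and at 8.40, 11.6 and 8.36 in KO_tumor. Sc5d stood at 11.4, 15.5, 11.3 and 10.7 FPKM in WT_tumor and at 18, 21.2 and 11.8 in KO_tumor. For both genes all 7 tumor cell libraries lay below all 3 NPF libraries. The other genes for which NPF stood above every tumor cell library were Mvk, Hsd17b7, Insig2, Scd1, Fads1 and Fads2, 8 of 32 in all (background 17.1%). Mean Nsdhl in NPF was 3.66 times that in WT_tumor, whereas the ratio for Tm7sf2 was 0.998 and for Msmo1 1.52.

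**Figure D4:**
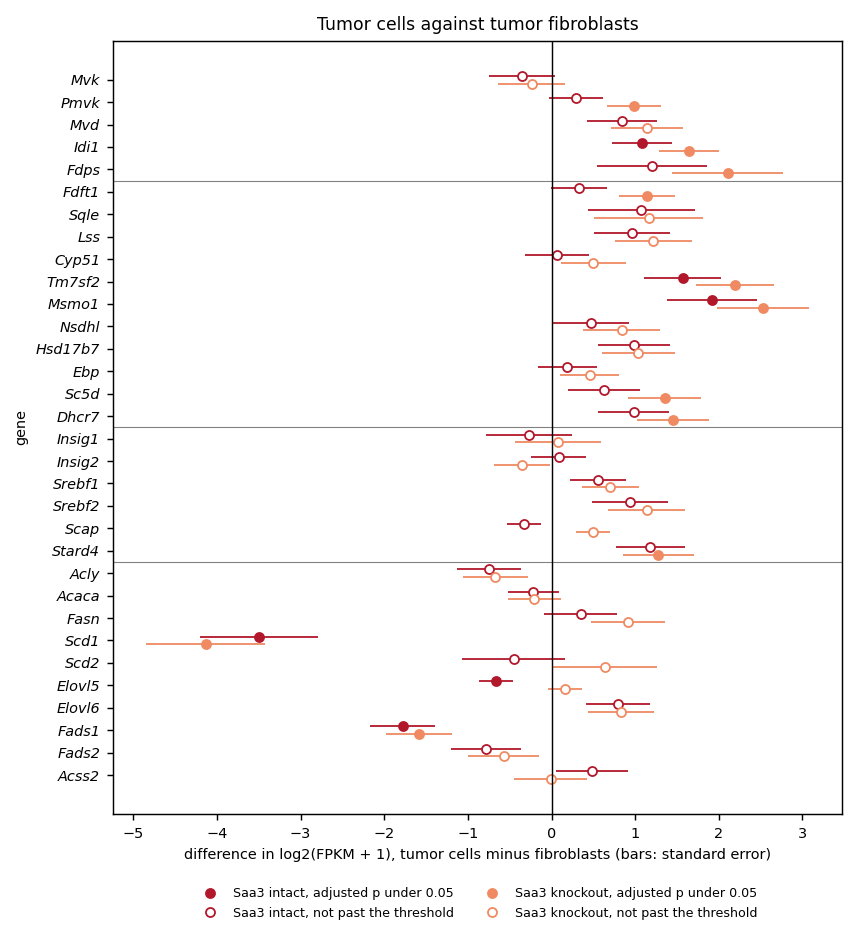
Difference in log2(FPKM + 1) between tumor cells and tumor fibroblasts for the 32 tested genes, with Saa3 intact (dark red) and in the knockout (orange). Points are model estimates with all libraries, bars are standard errors, and filled points have an adjusted p under 0.05. Of the sterol enzymes all but Mvk lie to the right of 0 in both comparisons, and Scd1 and Fads1 lie far to the left.

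The median direction for the sterol enzymes was the same within the 6-base and the 16-base form, the only forms that hold tumor cell libraries. The model, with index form as a term, draws on these same differences, so they are no separate check. Among libraries with a 6-base index the median difference between tumor cells and fibroblasts was 0.67 with Saa3 intact (13 of 16 genes above 0) and 0.97 in the knockout (15 of 16). With a 16-base index it was 1.09 and 1.63, with 16 of 16 genes above 0 in both. These within-form groups hold 1 to 3 libraries. Tumor cells held 2920 to 8550 FPKM of the 8 epithelial markers, against 2.62 to 627 in the tumor fibroblasts. Acinar markers summed to 14500, 6410, 1840 and 14.2 FPKM in WT_tumor and to 9.17, 8060 and 19300 in KO_tumor. The mean of the sterol enzymes was 4.37, 4.14, 3.45 and 4.08 in WT_tumor 1 to 4 and 4.08, 4.63 and 3.80 in KO_tumor 1 to 3, against 2.59 to 3.69 in the 7 tumor fibroblast libraries without WT_CAF 1, and WT_tumor 3 lay within that range. The part of acinar cells in the difference was not tested.

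None of the 32 genes was called between knockout and Saa3-intact libraries in either cell type. In KO_CAF against WT_CAF 0 of the 32 were called and 0 had an unadjusted p under 0.05 (limma, background 0.00748% higher and 0.0% lower), and without WT_CAF 1 the count was 0 as well (background 0.0075% and 0.0%). With index form in the model, only WT_CAF 3 to 5 of the WT_CAF libraries set the size of these differences. Leaving out WT_CAF 1 could not move them, so the second count is no separate check. With 0.0% of tested genes called lower in both fits, the deleted gene Saa3 was itself missed. Its highest KO_CAF value was 1.85 FPKM, and the lowest among WT_CAF 2 to 5 was 892 FPKM. A count of 0 in this comparison therefore cannot show that the 32 genes were unchanged. The median difference was -0.21 over the 32 genes and -0.35 over the sterol enzymes, beside -0.01 over all genes. All 16 sterol differences were below 0, from -0.62 to -0.05, and the largest, Msmo1 at -0.62 ± 0.57, was a little more than its standard error. KO_CAF lay below WT_CAF without overlap for Pmvk, a mevalonate pathway kinase, Fdft1 and Fads1 (background 0.733%). KO_CAF values were 6.53, 5.77 and 4.78 FPKM for Pmvk, against 6.95 to 14.2 in WT_CAF.

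KO_tumor against WT_tumor also had 0 genes called in either direction, as had the table as a whole (0.0% of tested genes). At the looser threshold of an unadjusted p under 0.05, to which that share does not apply, 2 of the 32 genes passed. The smallest adjusted p was that of Scap, at 8.18, 17.6, 13.6 and 12.6 FPKM in WT_tumor and 25.8, 14.4 and 26.2 in KO_tumor, a difference of 0.77 ± 0.19 (limma adjusted p = 0.79). Within each index form the KO_tumor libraries were above the WT_tumor libraries, and over all forms they overlapped. Elovl5, an elongase, was the 1 gene with KO_tumor above WT_tumor throughout (22.8, 34.8 and 24.4 against 14.1 to 20.9 FPKM, background 1.36%), and Insig2 the 1 gene below (10.5, 12.7 and 13.1 against 14.9 to 17.8 FPKM, background 2.25%). The median over the 32 genes was 0.10, beside -0.02 over all genes. In the test of the difference between the 2 knockout effects 0 genes passed (0.0% of all genes in either direction), with Scap at 0.83 ± 0.29 (unadjusted p = 0.012) and Elovl5 at 0.82 ± 0.29 (unadjusted p = 0.013), both with an adjusted p of 1.

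Of the 10 tested fatty acid enzymes, 0 were called higher in tumor cells than in fibroblasts (background 9.05% in WT_tumor and 13.0% in KO_tumor). Called lower were 3 in WT_tumor (background 12.5%) and 2 in KO_tumor (background 15.4%). Elovl6 and Fads2 were among the 14 genes that parted NPF from WT_CAF 2 to 5. Scd1, the stearoyl-CoA desaturase that makes monounsaturated fatty acids, stood at 26.0, 45.7 and 37.3 FPKM in NPF, at 68.8, 53.0, 27.8, 15.3 and 104 in WT_CAF, and at 88.9, 50.8 and 20.8 in KO_CAF. In WT_tumor it stood at 1.06, 1.83, 1.77 and 13.0 FPKM and in KO_tumor at 2.65, 1.54 and 1.01. All 7 tumor cell libraries lay below all 11 fibroblast libraries, WT_CAF 1 included, and the highest of them was WT_tumor 4, the library low in Epcam. Scd1 fell by 3.50 ± 0.70 in WT_tumor against WT_CAF (limma adjusted p = 0.004) and by 4.14 ± 0.71 in KO_tumor against KO_CAF (adjusted p = 0.0012). Its paralog Scd2 stood at 60.0, 93.4 and 56.6 FPKM in NPF, at 240, 50, 46.2, 32.6 and 95.5 in WT_CAF, at 72.1, 34.4 and 39.3 in KO_CAF, at 17.2, 76.7, 30.6 and 80.6 in WT_tumor and at 63.5, 86.5 and 69.2 in KO_tumor. Scd2 overlapped between all groups, apart from its high value in WT_CAF 1, with differences of -0.45 ± 0.61 and 0.64 ± 0.62 between tumor cells and fibroblasts. The sources used here do not say how reads shared by the 2 paralogs were split.

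Among 5 adipocyte markers, Fabp4, a fatty acid binding protein that other cell types also make, gave nearly the whole sum in NPF and in the 7 tumor fibroblast libraries. Like Scd1, Fabp4 was lower in the tumor cells. It stood at 57.2 to 265 FPKM in NPF, 114 to 227 in the 7 tumor fibroblast libraries without WT_CAF 1 and 0.0 to 4.16 in the tumor cells. Cidec, a lipid droplet protein, went the other way, at 0 throughout NPF, at most 0.511 FPKM in tumor fibroblasts and 0.232 to 21.5 in tumor cells. Adipoq and Plin1 were at most 3.11 and 1.25 FPKM, and Lep was at 0 in 16 libraries. Among the fibroblast libraries the order of Fabp4 was not that of Scd1. The library labelled WT_CAF 1 held 4.37 FPKM of Fabp4 and 68.8 FPKM of Scd1. NPF 1 to 3 held 265, 58.1 and 57.2 FPKM of Fabp4 and 26.0, 45.7 and 37.3 FPKM of Scd1. The part of adipocytes in the difference was not tested.

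Fads1, a desaturase of polyunsaturated fatty acids, stood at 38.6, 79.3 and 72.8 FPKM in NPF, at 32.9, 32.7, 32.4, 37.0 and 39.9 in WT_CAF, and at 30.9, 21.9 and 30.8 in KO_CAF. It stood at 16.8, 7.31, 2.66 and 11.4 FPKM in WT_tumor and at 7.21, 12.2 and 7.02 in KO_tumor. WT_CAF 1 was level with the other WT_CAF libraries for this gene, and no tumor cell library reached a fibroblast library. Fads1 fell by 1.78 ± 0.39 (limma adjusted p = 0.0063) with Saa3 intact and by 1.58 ± 0.40 (adjusted p = 0.0099) in the knockout. Scd1 and Fads1 were the 2 genes with all tumor cells below all fibroblasts (background 4.13%). Fads2, its partner desaturase, had a mean of 67.3 ± 25.1 FPKM in NPF (n = 3), 28.6 ± 4.18 in WT_CAF 2 to 5 (n = 4) and 17 ± 8.95 in WT_tumor (n = 4), and was not called between tumor cells and fibroblasts. Elovl5 fell by 0.66 ± 0.20 in WT_tumor against WT_CAF (adjusted p = 0.033), from 24.7 to 36.7 FPKM in WT_CAF to 14.1 to 20.9 in WT_tumor, and differed by 0.16 ± 0.21 in the knockout comparison (adjusted p = 0.58).

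**Figure D5:**
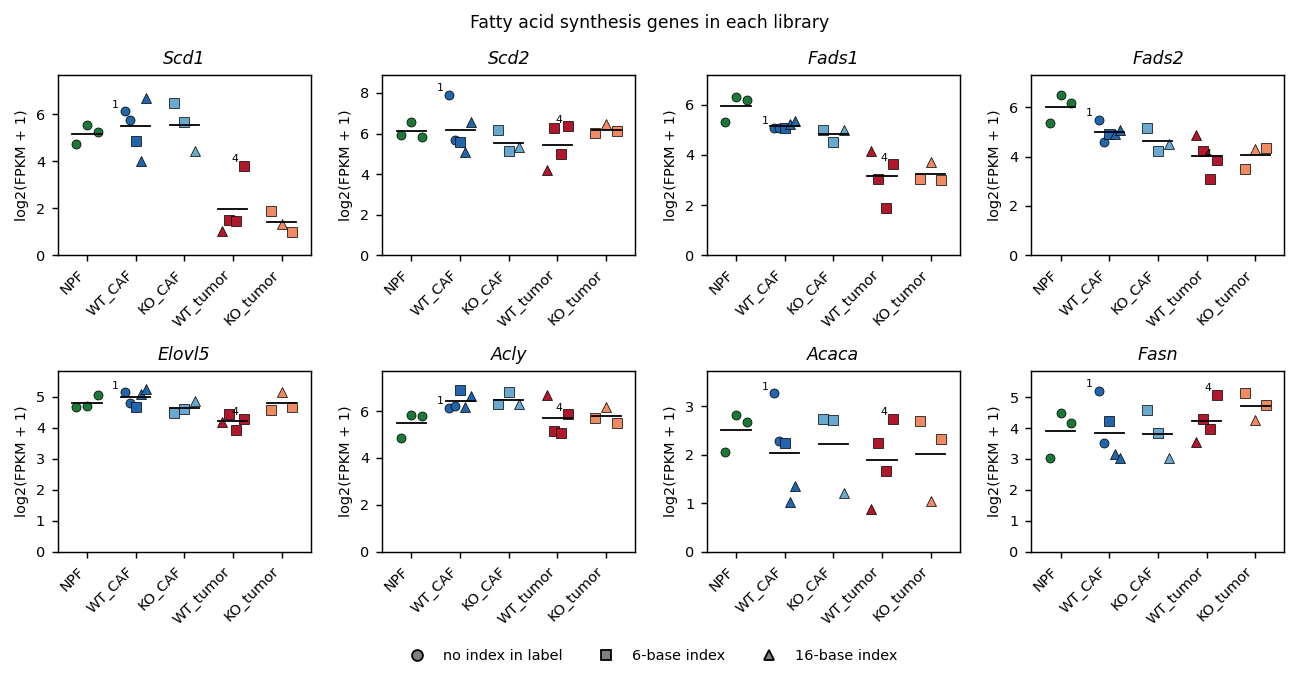
Log2(FPKM + 1) of 8 fatty acid enzymes. Points are libraries in columns by group, shapes show the label's index form, lines are means over a group's libraries, and the numbers mark WT_CAF 1 and WT_tumor 4. Scd1 and Fads1 part the tumor cells from the fibroblasts, Scd2 does not, and Acaca is lowest in the libraries with a 16-base index (triangles).

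Acly, which turns citrate into cytosolic acetyl-CoA, stood at 28.0, 56.3 and 54.7 FPKM in NPF, at 69.8, 72.5, 119, 70.3 and 98.7 in WT_CAF, and at 77.4, 110 and 78.5 in KO_CAF. All 8 tumor fibroblast libraries were above NPF, and the difference between WT_CAF and NPF was 0.67 ± 0.44 (limma adjusted p = 0.46). In WT_tumor it stood at 101, 34.4, 32.2 and 57.1 FPKM and in KO_tumor at 51.8, 70.9 and 44.3. Fasn, the fatty acid synthase, stood at 7.27, 21.6 and 16.9 FPKM in NPF, at 36.0, 10.5, 17.7, 7.86 and 7.22 in WT_CAF, at 23.0, 13.4 and 7.10 in KO_CAF, at 10.6, 18.7, 14.7 and 33.0 in WT_tumor and at 34.5, 18.4 and 26.0 in KO_tumor. Fasn overlapped between all groups and was not called in any of the 6 comparisons. Acss2, which makes acetyl-CoA from acetate, and the elongase Elovl6 were low throughout, at 1.85 to 8.63 and 0.693 to 5.68 FPKM.

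Acaca, the carboxylase that commits acetyl-CoA to fatty acids, followed the index form and not the group. It stood at 3.17, 6.04 and 5.35 FPKM in NPF, at 8.62, 3.84, 3.75, 1.02 and 1.54 in WT_CAF, at 5.69, 5.55 and 1.32 in KO_CAF, at 0.847, 3.73, 2.16 and 5.65 in WT_tumor and at 5.43, 1.06 and 3.99 in KO_tumor. The 5 libraries with a 16-base index were the 5 lowest of the 18 (background 4.88%), and with the groups held apart the 16-base libraries were lower by 1.34 on the log2 scale (standard error 0.23, limma adjusted p = 0.001). Scap was lower in the same contrast (-0.56 ± 0.15, adjusted p = 0.019) and Idi1 higher (0.85 ± 0.27, adjusted p = 0.041). These were the 3 of 32 genes called between the index forms, where 11.2% of all genes were called lower and 6.66% higher. Lanes also differ between these label forms.

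Among the regulators, Srebf2 stood at 13.1, 34.5 and 43.7 FPKM in NPF, at 61.8, 17.3, 23.6, 14.8 and 9.05 in WT_CAF, at 28.7, 16.7 and 11.5 in KO_CAF, at 24.2, 38.0, 35.7 and 54.9 in WT_tumor and at 49.7, 32.7 and 39.7 in KO_tumor. NPF overlapped WT_CAF with WT_CAF 1, and without it only NPF 1 lay within the range of the tumor fibroblasts, while KO_tumor lay above KO_CAF. Srebf2 differed by 0.94 ± 0.45 in WT_tumor against WT_CAF (limma adjusted p = 0.15) and by 1.14 ± 0.46 in KO_tumor against KO_CAF (adjusted p = 0.079, and 0.035 without WT_CAF 1). Srebf1 stood at 9.36, 20.9 and 20.4 FPKM in NPF, at 40.5, 15.6, 17.5, 15.7 and 11.3 in WT_CAF, at 18.2, 15.0 and 10.2 in KO_CAF, at 19.7, 31.1, 23.1 and 29.2 in WT_tumor and at 22.6, 18.7 and 31.1 in KO_tumor. Tumor cells stood above the 7 tumor fibroblast libraries without WT_CAF 1 and overlapped NPF, and no comparison called the gene.

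Insig1, which is itself an SREBP target, stood at 29.2, 55.7 and 33.5 FPKM in NPF, at 80.3, 30.5, 28.2, 49.4 and 9.4 in WT_CAF, at 17.9, 16.7 and 12.8 in KO_CAF, at 24.1, 32.4, 11.7 and 19.6 in WT_tumor and at 17.8, 14.4 and 17.9 in KO_tumor. NPF overlapped WT_CAF and stood above KO_CAF, and its difference between KO_CAF and WT_CAF was -0.63 ± 0.53 (limma adjusted p = 1). Stard4, a carrier of cholesterol between membranes, stood at 5.06, 7.12 and 5.24 FPKM in NPF, at 10.1, 2.74, 2.02, 1.69 and 1.91 in WT_CAF, at 3.29, 2.13 and 1.66 in KO_CAF, at 3.64, 14.4, 3.82 and 6.95 in WT_tumor and at 6.20, 6.99 and 7.85 in KO_tumor. It was low in the 7 tumor fibroblast libraries and higher in WT_CAF 1, NPF and tumor cells. Stard4 rose by 1.28 ± 0.42 in KO_tumor against KO_CAF (adjusted p = 0.035) and differed by 1.18 ± 0.41 in WT_tumor against WT_CAF (adjusted p = 0.056, and 0.023 without WT_CAF 1).

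Genes around the pathway were counted in 6 lists, and their counts in tumor cells stand beside 9.05% higher and 12.5% lower of all genes in WT_tumor and 13.0% and 15.4% in KO_tumor. In WT_CAF against NPF and in both knockout comparisons, with all libraries, 0 genes were called in each of the 6. Between tumor cells and fibroblasts, 0 of 9 genes of SREBP processing and its cofactors were called in WT_tumor, and 0 rose and 2 fell (Erlin1 and Nr1h3) in KO_tumor. Of 11 genes of the isoprenoid branches, 0 were called in WT_tumor and 1 rose in KO_tumor (Rabggta, a prenyltransferase subunit). Of 10 genes of sterol efflux, esterification and trafficking, 1 rose and 3 fell in WT_tumor, and 1 rose and 2 fell in KO_tumor.

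Stard3, a sterol carrier of late endosomes, rose by 1.14 ± 0.28 (limma adjusted p = 0.01) with Saa3 intact and by 1.35 ± 0.28 (adjusted p = 0.0037) in the knockout. Npc2, the lysosomal cholesterol-binding protein, fell by 1.39 ± 0.22 (adjusted p = 0.00098) and by 1.12 ± 0.22 (adjusted p = 0.0025), and Abca1, the cholesterol efflux pump, fell by 2.02 ± 0.55 (adjusted p = 0.019) and by 2.0 ± 0.56 (adjusted p = 0.017). Of 12 tested genes of fatty acid supply, 3 rose and 2 fell in WT_tumor and 4 rose and 1 fell in KO_tumor. Elovl7, an elongase, stood at 5.81 to 9.74 FPKM in tumor cells and at 0.0313 to 0.572 in tumor fibroblasts other than WT_CAF 1, which held 5.47. Of 10 genes of glycerolipid and phospholipid synthesis, 2 rose and 1 fell in WT_tumor and 1 rose and 3 fell in KO_tumor, with the choline kinase Chka at 1.71 ± 0.33 (adjusted p = 0.0033) and 1.71 ± 0.34 (adjusted p = 0.0027). Of 12 genes of fatty acid oxidation, 1 rose and 1 fell in WT_tumor and 1 rose and 3 fell in KO_tumor. Cpt1c, a neuronal-type carnitine palmitoyltransferase, fell in both, by 2.63 ± 0.45 (adjusted p = 0.0016) and by 3.22 ± 0.46 (adjusted p = 0.00045).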

How the data were processed

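Per the labels' protocols, poly(A) libraries came from a TruSeq kit and a HiSeq2000. FPKM for 23951 genes in 18 libraries are the values the authors deposited. The submitters' processing notes name Cufflinks 2.2.1, Cuffnorm, TopHat2 2.0.10, Bowtie 1.0.0, FastQC and SAMtools 0.1.19, with the builds mm9, GRCh37 and hg19, of which only mm9 is a mouse genome. The sources used here do not give the annotation, the use of strand or the handling of reads shared by paralogs. Such values carry no read counts, so the depth is unknown and no count test was run.

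From these values, log2(FPKM + 1) was fitted by a linear model in limma 3.58.1 (R 4.3.3, moderated with a trend) for the 13369 genes that reached 1 FPKM in at least 3 libraries, which left out 10582. All 18 libraries entered 1 fit with group and index form as terms and 11 residual degrees of freedom. Tests were two-sided, Benjamini-Hochberg adjustment covered every tested gene, and an adjusted p under 0.05 was a call. Differences are on the log2(FPKM + 1) scale with standard errors and understate the change of low genes. The design states biological replicates, replicate numbers follow the deposition order, and no libraries were paired.

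The genes and all gene lists were chosen with earlier results of these data known. Each library value is given for the 12 called genes with the smallest adjusted p and for 11 genes named in advance (Sqle, Fdft1, Hmgcs1, Insig1, Srebf1, Srebf2, Fasn, Scd1, Scd2, Acaca and Acly). Of the surrounding lists, the genes with the smallest p serve as examples. Symbols not found under their listed name were matched through RefSeq synonyms (Sc4mol as Msmo1, Hacd3 as Ptplad1). Alternatives were another pseudocount, other filters, quantile normalization, fits without index form, fits of only the groups compared, and each library left out. The fit without WT_CAF 1 and WT_tumor 4, KO_CAF against NPF and the index contrast were added after seeing the data. Promoter windows come from a RefSeq table on GRCm38.p6. Some items in the labels are not reported here.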

Additional observations from a re-analysis of the deposited data

Results flagged for a closer look

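A sample was picked out when its gap to the nearest of its group, over the range of the group, passed the critical value of Dixon's test at the 95% level, in groups of 4 or 5 libraries. Among 64 such groups (32 genes in WT_CAF and in WT_tumor) 17 had such a sample, where chance gives about 1 in 20 for a single group. The 32 genes were measured in the same libraries, so the 64 groups are not independent and this rate is no test of the count. The library labelled WT_CAF 1 was the highest of 5 in 14 of the 17. Its values were 19.2 FPKM for Mvd, 166 for Fdps, 45.2 for Fdft1, 68.3 for Sqle, 16.7 for Lss and 41.9 for Cyp51. For the later sterol steps they were 10.1 FPKM for Tm7sf2, 68.0 for Msmo1, 34.2 for Nsdhl, 16.5 for Hsd17b7 and 12.1 for Dhcr7. For the regulators and the carrier they were 40.5 FPKM for Srebf1, 61.8 for Srebf2 and 10.1 for Stard4. Beside these values, the fibroblast markers of WT_CAF 1 summed to 887 FPKM and its Pdgfra stood at 9.80 FPKM. The part of other cells in them was not tested. Of the fatty acid enzymes, Scd1, Fads1, Elovl5 and Acly of the same library lay within the range of the other WT_CAF libraries or next to it. They stood at 68.8, 32.9, 34.2 and 69.8 FPKM. Scd2, Fasn, Acaca, Acss2, Fads2 and Elovl6 were also highest in WT_CAF 1 but did not pass the critical value. They stood there at 240, 36.0, 8.62, 8.63, 44.5 and 2.35 FPKM.

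Of the remaining 3, Scd1 in WT_tumor 4, the library low in Epcam, was the highest of 4 at 13.0 FPKM, against 1.06 to 1.83. Fdft1 in WT_tumor 3 was the lowest of 4 at 15.1 FPKM, and Sc5d in WT_tumor 2 was the highest of 4 at 15.5 FPKM.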

How the results depend on the processing

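No paired analysis was possible because the labels carry no replicate numbers or animals shared between groups. The count of genes lower in WT_CAF against NPF (0) was 1 with no index term, 8 without WT_CAF 1 and the index term, and 5 without WT_CAF 1 and WT_tumor 4, and the median of the 32 genes (-0.04) was -0.43, -0.77 and -0.78. Leaving out 1 library gave 0 to 5 lower, 0 to 1 higher (1 without WT_CAF 2) and a median of -0.78 to 0.68. With 1 library left out the difference of Fdps ran from -2.54 to 0.76, that of Nsdhl from -2.35 to 0.18 and that of Tm7sf2 from -2.40 to 0.043, with the lower end without WT_CAF 1 and the upper end without WT_CAF 2. In WT_tumor against WT_CAF the 3 higher genes were 1 with no index term, 6 without WT_CAF 1 and the index term, 0 with only the groups compared and 0 to 6 with 1 library left out, and the 3 lower genes were 0 with only the groups compared and 1 to 3 with 1 library left out. The 9 higher genes of KO_tumor against KO_CAF were 5 with no filter on low values and 3 to 13 with 1 library left out. The median of the difference between the 2 knockout effects (0.29) was 0.65 with no index term. With the index term, WT_CAF 1 and 2 set the size of WT_CAF against NPF, and WT_CAF 3 to 5 that of the other comparisons with WT_CAF. Without the term, every WT_CAF library that is kept enters each of them. The part of this in the shifts was not tested, nor was any other cause. In the knockout comparisons and the difference between them, 0 of the 32 genes were called under every alternative run. Of the single-gene values under the alternatives, 761 kept their direction and side of the threshold, 52 passed it newly, 70 lost it and 3 turned. Without read counts, the precision of low values such as Acaca, Tm7sf2 and Elovl6 cannot be judged from depth.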
